A study of Drosophila melanogaster with 29 samples.

Results

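DNA damage repair and checkpoint genes were followed through a study of menin, the Drosophila homologue of the product of the human tumour suppressor gene MEN1. The genes were a list of 35 named for their roles in repair and checkpoint signalling, and a probe was taken where its only gene symbol was one of them. Of the 35 genes, 28 had probes on both platforms, as 64 of 30377 embryo spots and 30 of 13966 adult probe sets. The other 7 genes, among them the excision gene mus201, the mismatch gene spel1, the photolyase genes phr and phr6-4, and the recombination genes spn-B and spn-D, were not analysed here.

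Cells meet broken, mismatched or bulky DNA with separate repair branches. Nucleotide excision cuts out bulky lesions, mismatch repair corrects replication errors, and breaks are rejoined by recombination or by end joining. Checkpoint kinases of the ATM, ATR, Chk1 and Chk2 families hold the cell cycle and, through p53, can trigger cell death. In flies several of these genes were found as mutagen-sensitive (mus) or meiotic (mei) mutants. The early embryo divides on maternal RNA made in the ovary, and the Chk1 gene grp is known for slowing its last rapid divisions.

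Embryo arrays compared mnn++ embryos, which carry a full-length Mnn1 cDNA under UAS control with a GAL4 driver, with driver controls that lack the construct. There were 2 such controls, cntrl1 and cntrl2, and the labels name neither their difference nor the driver. Whole embryos came from windows of 2-4, 4-6, 6-8 and 2-16 h, and the flies that laid them were mated at 3 to 5 days after eclosion and kept at 25 °C. Every mnn++ and control pair was run in both dye orientations, on 16 arrays. A further 2 arrays set cntrl1 against cntrl2 at 2-16 h. The adult arrays held whole flies aged 3 to 5 days. The 6 female arrays were wt (array 1), the X113_X84 control (3), heterozygotes X113_Y79 (4) and X84_X46 (5), and mnn- X46_Y79 (7) and Y79_X46 (8). The 5 male arrays were wt (2), the X113_X84 control (6), and mnn- X46_Y79 (9), Y79_X46 (10) and Y79_Y79 (11). X46 and Y79 are read as mutant and X113 and X84 as non-mutant chromosomes from these titles, and mnn- means 2 mutant alleles. A free-text note calls all 11 adult samples homozygous null, which contradicts the titles, and the titles were followed. The labels do not say whether arrays of a group came from separate cultures, so p-values measure the spread between these arrays, which may be technical.

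A few facts of the arrays bear on what follows. Adult array medians lay between 5.464 and 5.533 (log2 intensity), and the wt male array stood apart. Its summed intensity of 3 yolk protein genes, female fat body products, was 6664, where the other male arrays had 390 to 461 and the females 18215 to 30019. Its sum over 11 follicle and eggshell probe sets was 9249, against 1212 to 1332 in the other males. The wt female had an eggshell sum of 48643, where the other females had 8035 to 11387. Results that rest on the wt male are therefore given with and without it. In embryos, Mnn1 itself read 0.62 and 0.56 (log2 ratio) at 2-16 h on its spots and between 0.03 and 0.25 in the earlier windows. The direction of all embryo ratios was read from that 2-16 h value and is likely but not stated. Both spots of a gene, over 9524 genes with exactly 2, correlated at r = 0.632 across genes, which are not independent replicates.

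Most repair and checkpoint genes read higher in adult females than in adult males. Of the 30 member probe sets 26 were higher in females and 0 in males by limma at an adjusted p under 0.05. Among all 13966 probe sets 33.0% were higher in females and 32.4% in males. The members' median female minus male difference was 0.85 (log2), and that of all probe sets was -0.03. Every female array lay above every male array for 25 of the 30, where 29.8% of all probe sets did so. For 0 of the 30 did every female array lie below every male array, against 25.6% of all. Fewer cells of a type and less RNA per cell cannot be told apart in whole flies. In the sentences that follow, the 3 female values are the lowest, median and highest of 6 arrays, and the 5 male values are wt, control, and mnn- males 9, 10 and 11, all in log2 intensity. Differences are female minus male with the SE of the fit, and folds are 2 to the power of that difference.

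Checkpoint kinases headed the list. The Chk2 gene lok read 8.16, 8.60 and 8.70 in females and 5.02, 4.36, 3.97, 4.62 and 4.23 in males. Its difference was 4.19 ± 0.17, a 18.2-fold excess (1 SE either side: 16.2 to 20.4, adjusted p = 7.11e-10 by limma). The control male and mnn- males 9 and 11, at 4.36, 3.97 and 4.23, were dim, near or under the arrays' lower quartile (4.195 to 4.413). How far this limits the fold was not tested, and the SE does not cover it. The Chk1 gene grp followed, with 8.92, 9.21 and 9.36 in females and 6.47, 5.70, 5.94, 5.52 and 5.27 in males. That was a 11.1-fold excess (3.47 ± 0.18, adjusted p = 6.56e-09). For both genes the lowest female array lay more than 2 log2 units above the highest male array, and that male was wt. The ATR partner mus304 (ATRIP) read 6.65, 6.91 and 7.08 in females and 5.89, 5.85, 6.23, 5.83 and 5.65 in males (1.06 ± 0.11). The TopBP1 homologue mus101 read 5.83, 6.05 and 6.23 in females and 5.35, 5.24, 5.52, 5.34 and 5.22 in males (0.74 ± 0.10). p53 read 5.99, 6.03 and 6.29 in females and 5.73, 5.52, 5.27, 5.28 and 5.37 in males (0.63 ± 0.10). The sexes did not overlap for these 3 genes, although the gap for p53 was narrow. The ATM gene tefu read 4.34, 4.50 and 4.71 in females and 4.27, 4.27, 4.43, 4.20 and 4.28 in males, with overlap (0.26 ± 0.07, adjusted p = 0.00829). Its kinase relative mei-41, the fly ATR, did not pass, at 5.37, 5.39 and 5.48 in females and 5.43, 5.30, 5.29, 5.35 and 5.13 in males (0.07 ± 0.07, adjusted p = 0.37). The apical kinases tefu and mei-41 thus had the smallest differences of the 7 checkpoint genes, and the effector kinases lok and grp the largest. However, tefu was dim, near the lower quartile of the arrays (4.195 to 4.413), and differences between probe sets of different genes were not tested.

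**Figure D1:**
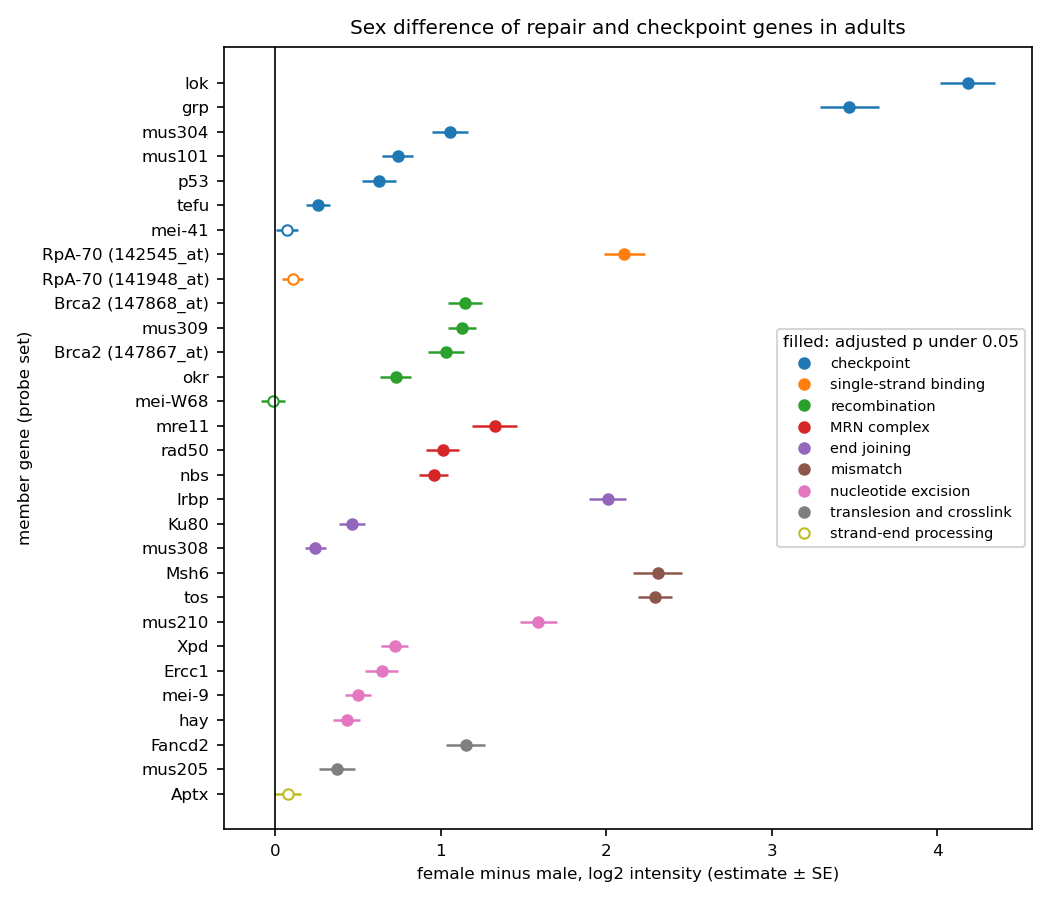
Female minus male difference (log2 intensity, x axis) of each member probe set, grouped and coloured by repair branch, with bars of 1 SE from the fit on 11 arrays. Filled points passed an adjusted p under 0.05. The difference runs from -0.02 for mei-W68 to 4.19 for lok, and 26 of 30 points are filled, all to the right of 0.

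Mismatch repair had both measured genes high in females. Msh6, a subunit of the mismatch recognition dimer, read 7.03, 7.53 and 7.62 in females and 5.51, 5.03, 4.89, 5.28 and 5.16 in males. It was 4.96-fold higher in females (2.31 ± 0.15, adjusted p = 3.85e-08 by limma). The exonuclease gene tos, the fly Exo1, read 7.07, 7.21 and 7.39 in females and 5.25, 4.73, 4.88, 4.96 and 5.00 in males, a 4.92-fold excess (2.30 ± 0.10). The female and male arrays of both genes lay well apart.

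Replication protein A coats single-stranded DNA, and the probe sets of its large subunit RpA-70 disagreed. Probe set 142545_at read 8.09, 8.40 and 8.48 in females and 6.71, 6.18, 6.11, 6.05 and 6.33 in males, 4.31-fold higher in females (2.11 ± 0.12). Probe set 141948_at read 3.38, 3.55 and 3.66 in females and 3.28, 3.42, 3.41, 3.47 and 3.40 in males, with overlap (0.11 ± 0.06, adjusted p = 0.161). The second probe set lay under the lower quartile of its array on every array, as did those of Ku80, mus308 and mei-9. That quartile lay between 4.195 and 4.413 (log2) on the 11 arrays, and the files hold no detection calls. Males alone were dim for nbs, Xpd and Fancd2, where no male array read above 4.28.

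The MRN complex, which senses and trims broken ends, was higher in females for all 3 subunits. Its nuclease mre11 read 5.71, 5.95 and 6.13 in females and 4.92, 4.50, 4.95, 4.44 and 4.41 in males (1.33 ± 0.13). The ATPase gene rad50 read 6.78, 6.88 and 7.12 in females and 5.88, 5.96, 5.76, 5.80 and 6.15 in males (1.01 ± 0.10). The third subunit, nbs, read 4.87, 4.93 and 5.10 in females and 3.87, 3.95, 4.18, 3.97 and 4.28 in males (0.96 ± 0.09). The folds of 2.51, 2.02 and 1.94 lay close together, and no subunit had overlapping sexes.

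End joining was uneven between partners. The Ku70 gene Irbp read 6.04, 6.42 and 6.58 in females and 4.68, 4.52, 4.33, 4.36 and 4.31 in males, 4.03-fold higher in females (2.01 ± 0.11). Its dimer partner Ku80 read 3.66, 3.83 and 3.88 in females and 3.34, 3.30, 3.55, 3.26 and 3.29 in males, only 1.38-fold higher (0.46 ± 0.08). The gene of DNA polymerase theta, mus308, which joins ends through short homologies, read 3.31, 3.41 and 3.46 in females and 3.14, 3.13, 3.08, 3.03 and 3.20 in males (0.24 ± 0.06). Ku80 and mus308 are among the dim probe sets named above, and a difference between probe sets of different genes was not tested.

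In recombination, 4 of 5 probe sets passed. Brca2, a mediator of break repair by recombination, read 4.93, 5.34 and 5.42 in females and 4.47, 4.09, 4.15, 4.35 and 4.40 in males on probe set 147867_at. On 147868_at it read 6.40, 6.58 and 6.75 in females and 5.53, 5.27, 5.63, 5.44 and 5.36 in males, with differences of 1.03 ± 0.11 and 1.15 ± 0.10. The Bloom helicase gene mus309 read 5.60, 5.73 and 6.00 in females and 4.46, 4.86, 4.68, 4.73 and 4.75 in males (1.13 ± 0.09). The Rad54 gene okr read 5.39, 5.66 and 5.76 in females and 5.04, 4.89, 4.99, 4.73 and 4.97 in males (0.73 ± 0.09). All of these separated the sexes completely. The exception was mei-W68, the fly Spo11 that makes the breaks of meiosis, at 3.91, 4.01 and 4.27 in females and 4.09, 4.15, 4.10, 4.00 and 3.93 in males. Its difference of -0.02 ± 0.07 did not pass (adjusted p = 0.868 by limma), and its sign turned when single arrays were left out. This probe set was dim as well: every array but the control female, at 4.27, lay under 4.195, the lowest of the array quartiles.

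Nucleotide excision repair was higher in females for all 5 measured genes. The lesion sensor gene mus210, the fly XPC, led with 5.77, 6.02 and 6.23 in females and 4.28, 4.44, 4.62, 4.67 and 4.28 in males (1.59 ± 0.11, 3.01-fold). The helicase gene Xpd read 4.44, 4.66 and 4.82 in females and 3.95, 3.98, 3.96, 4.07 and 3.89 in males (0.72 ± 0.08). The other TFIIH helicase gene hay, the fly XPB, read 6.71, 6.88 and 6.98 in females and 6.62, 6.51, 6.31, 6.33 and 6.44 in males (0.43 ± 0.08). TFIIH also serves transcription. Of the nuclease pair, Ercc1 read 5.85, 6.02 and 6.26 in females and 5.54, 5.25, 5.78, 5.49 and 5.28 in males (0.64 ± 0.10). Its partner mei-9, the fly XPF, read 3.67, 3.87 and 4.02 in females and 3.43, 3.29, 3.26, 3.39 and 3.47 in males (0.50 ± 0.08). None of the 5 overlapped between the sexes, and the 4 genes other than mus210 lay within a range of 0.43 to 0.72.

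Of the lesion bypass and crosslink genes, Fancd2, the ubiquitinated target of the Fanconi pathway, read 4.71, 4.83 and 5.16 in females and 3.84, 3.43, 3.86, 3.56 and 3.92 in males (1.15 ± 0.12). The catalytic subunit of DNA polymerase zeta, mus205, read 5.82, 6.02 and 6.23 in females and 5.80, 5.75, 5.51, 5.63 and 5.42 in males (0.37 ± 0.11, adjusted p = 0.00834 by limma). Its lowest female array lay only just above its highest male array. Aptx, the aprataxin that clears blocked strand ends, did not pass (0.08 ± 0.08, adjusted p = 0.438), with 5.37, 5.76 and 5.97 in females and 5.51, 5.56, 5.74, 5.66 and 5.69 in males.

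The sex difference was present within each genotype. Within non-mutant flies 22 of 30 members were higher in females, where 28.7% of all probe sets were. Within mnn- flies 26 of 30 were, where 30.4% of all were. For lok the difference was 3.92 ± 0.23 in non-mutant and 4.41 ± 0.21 in mnn- flies, and for grp 3.13 ± 0.24 and 3.76 ± 0.22. Leaving out the wt male left the count over all flies at 26 of 30. The wt male was the highest male array for 12 of the 30 members, where 28.6% of all probe sets had it highest. Among the 26 members higher in females it was highest for 11, where 34.8% of all female-higher probe sets had it highest.

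**Figure D2:**
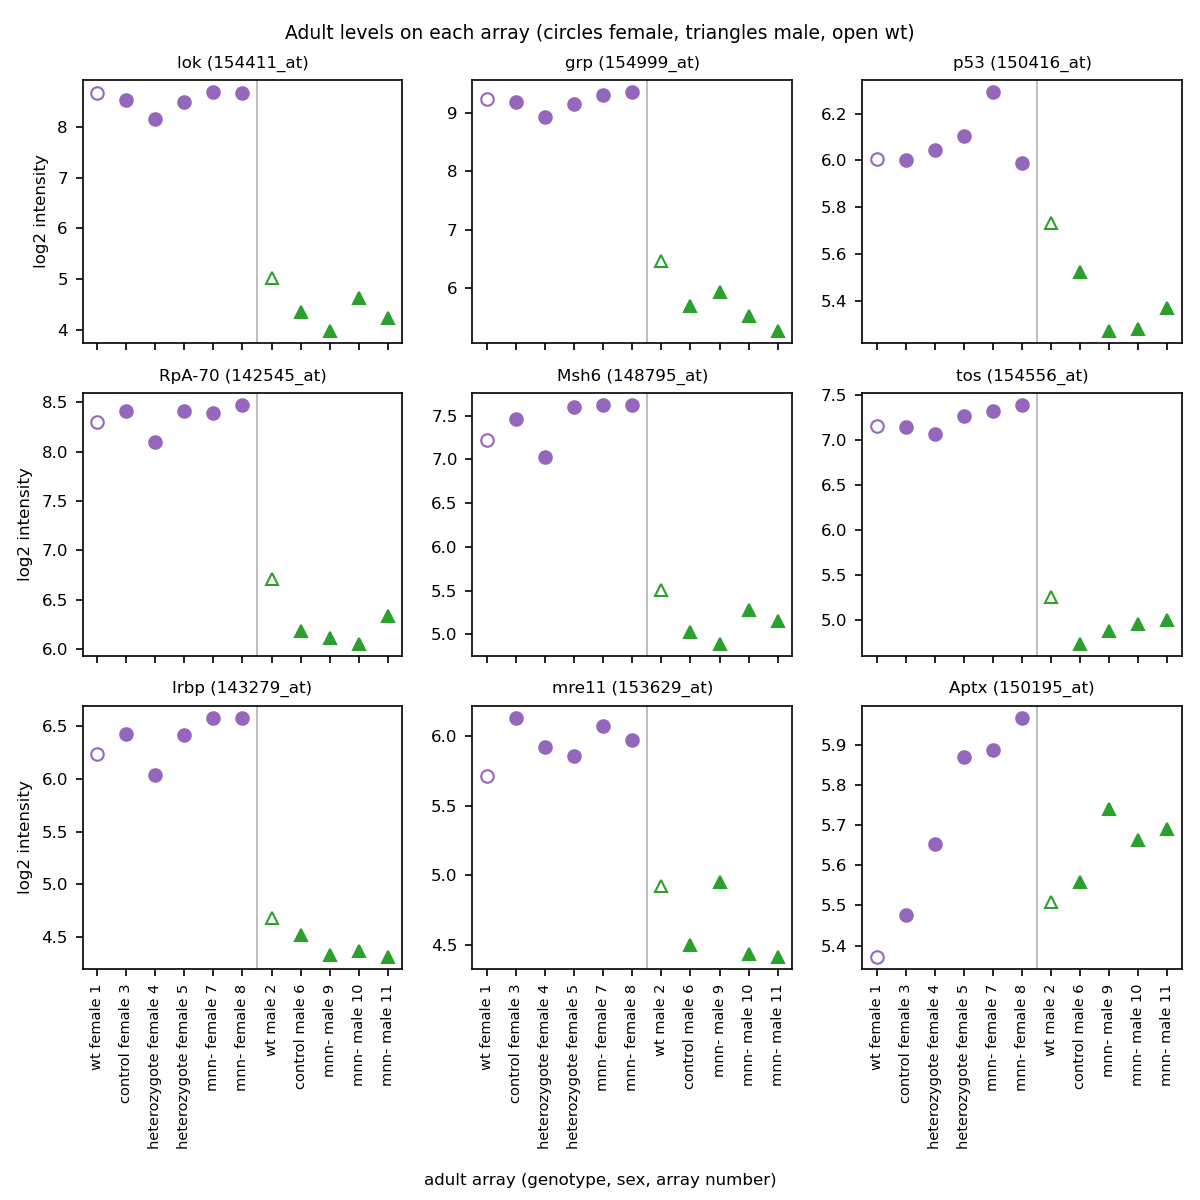
Log2 intensity (y axis, own scale in each panel) of 9 members on each of the 11 adult arrays (x axis), females as circles and males as triangles, wt open. Each point is a single array. The sexes lie apart in all panels but Aptx, the open triangle of the wt male is the highest male for lok, grp, p53, RpA-70, Msh6, tos and Irbp, and Aptx is lowest in wt and control flies of each sex.

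Other genes of repair, from a list of 62 names with no member in it, moved the same way. Some genes stand in that list under more than 1 name, and it also holds a few cell death genes. Of 53 probe sets for 45 of them, 41 were higher in females and 1 in males, with a median difference of 0.92. The highest were the exonuclease gene WRNexo (3.70 ± 0.15), the sliding clamp PCNA (3.40 ± 0.15), the replication protein A subunit RPA2 (2.89 ± 0.13) and the nuclease gene mus81 (2.62 ± 0.09 on 1 probe set and 1.41 ± 0.12 on the other). The single gene higher in males was egr, the fly ligand of the TNF family (-0.53 ± 0.09), which is one of the cell death genes. The smallest called differences towards females were those of timeout (0.18 ± 0.07 on probe set 149819_at), the resolvase gene Gen (0.29 ± 0.06) and Hus1-like (0.31 ± 0.07), part of the checkpoint clamp. Other probe sets of timeout gave 0.15 (not passed), 0.36 and 0.76.

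Markers of other tissues differed between the sexes as well. All 13 DNA replication probe sets were higher in females, with summed intensities of 1984 to 2694 in females and 342 to 476 in males, and PCNA belongs to both lists. Of 19 probe sets for genes of the female germline and its maternal RNAs 14 were higher in females, with sums of 6459 to 8101 and 859 to 1540. All 11 follicle and eggshell probe sets and all 3 yolk protein probe sets were higher in females. Of 18 testis probe sets 15 were higher in males (sums of 7073 to 8960 in males and 660 to 761 in females), as were all 11 of the accessory gland. The members' 7 checkpoint probe sets summed to 1059 to 1399 in females and 240 to 336 in males. How far these tissues account for the members' values was not tested.

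Loss of Mnn1 in adults was compared next. No member passed in mnn- against non-mutant flies: 0 of 30 were called, where 0.0143% of all probe sets were. At an unadjusted p under 0.05 there was 1 of 30, against 7.40% of all. The members' median difference was 0.01 (log2), and 17 lay above and 13 below 0. This balance turned on single arrays: without the wt male 22 lay above and 8 below 0 (median 0.04), and without the control male 13 above and 17 below (median -0.01). The smallest p belonged to Aptx. It read 5.37 in the wt and 5.48 in the control female, 5.65 and 5.87 in the heterozygotes, and 5.89 and 5.97 in the mnn- females. In males it read 5.51 in wt, 5.56 in control and 5.74, 5.66 and 5.69 in mnn-. Every mnn- array thus lay above every non-mutant array of its sex, which held for 1 of 30 members and for 2.03% of all probe sets. The reverse order held for 0 of 30 members and 2.46% of all.

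The Aptx difference was 0.32 ± 0.08 (mnn- minus non-mutant, n = 5 against 4 arrays), with an unadjusted p = 0.00227 and an adjusted p = 0.421 by limma. It was 0.50 ± 0.10 in females, 0.16 ± 0.09 in males and 0.34 ± 0.10 in heterozygous against non-mutant females. Next in p, and not passed, were the Spo11 gene mei-W68 (-0.14 ± 0.07), mus101 (0.16 ± 0.10), the dim probe set of RpA-70 (0.10 ± 0.06) and tefu (0.11 ± 0.07), with adjusted p from 0.725 to 0.81. In mei-W68 the females read 4.01, 4.27, 4.09, 3.98, 3.91 and 4.02 in the order wt, control, heterozygotes and mnn-, and the control female was highest. In mus101 the females read 5.93, 5.90, 5.83, 6.22, 6.23 and 6.17 in that order, and 1 heterozygote lay with the mnn- females.

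Split by sex, no member passed either. In females 0 of 30 were called (0.00716% of all), and 23 of 30 estimates lay above 0 with a median of 0.10, where all probe sets had a median of -0.003. With wt left out 20 lay above 0 (median 0.08), and with the control left out 22 did (median 0.12). After Aptx the smallest p were those of mus101 (0.29 ± 0.14) and Irbp (0.25 ± 0.13). The marker lists moved beside this: all 13 DNA replication probe sets lay above 0 in mnn- females, with a median of 0.20, and 0 of them passed. Their summed intensity was 2618 to 2694 in mnn-, 2198 to 2359 in non-mutant and 1984 to 2528 in heterozygous females. All 11 eggshell probe sets lay below 0 (median -1.61), beside the high wt female named above. The part of either in the members' values was not tested.

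In males 0 of 30 were called (0.0286% of all). The smallest p belonged to p53, which read 5.73 in wt, 5.52 in control and 5.27, 5.28 and 5.37 in mnn- males. All 3 mnn- males lay below both others, by -0.32 ± 0.11 in the fit (unadjusted p = 0.0127, adjusted p = 0.418 by limma). After it came grp (-0.51 ± 0.22), nbs (0.23 ± 0.10), Irbp (-0.26 ± 0.12) and hay (-0.20 ± 0.10). At an unadjusted p under 0.05 there were 4 of 30 members, where 1184 of all 13966 probe sets were. That count uses the wt male, and without it only 1 non-mutant male is left to compare with. The members' median male difference was -0.001, with 15 estimates above and 15 below 0. It was 0.02 without the wt male (17 above, 13 below) and -0.06 without the control male (11 above, 19 below). Against the control male alone the difference of p53 was -0.22, that of grp -0.13, that of lok -0.08 (from -0.41 ± 0.21) and that of Irbp -0.18. The estimates of grp and lok thus shrank most when the wt male was left out, while p53 stayed lower. Marker lists differed beside these values. Of the 13 DNA replication probe sets 11 lay below 0 in mnn- males and 0 passed, and their sum was 476 in wt, 342 in control and 354 to 384 in mnn- males. Of the 19 female germline probe sets 17 lay below 0 and 0 passed, with sums of 1540, 859 and 1067 to 1151. In both lists the wt male was thus the highest male and the control male the lowest. Of the 11 accessory gland probe sets 9 lay below 0 (median -0.50) and 1 passed, with sums of 8808, 9511 and 6344 to 7706. The part of these tissues in the members' values was not tested.

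**Figure D3:**
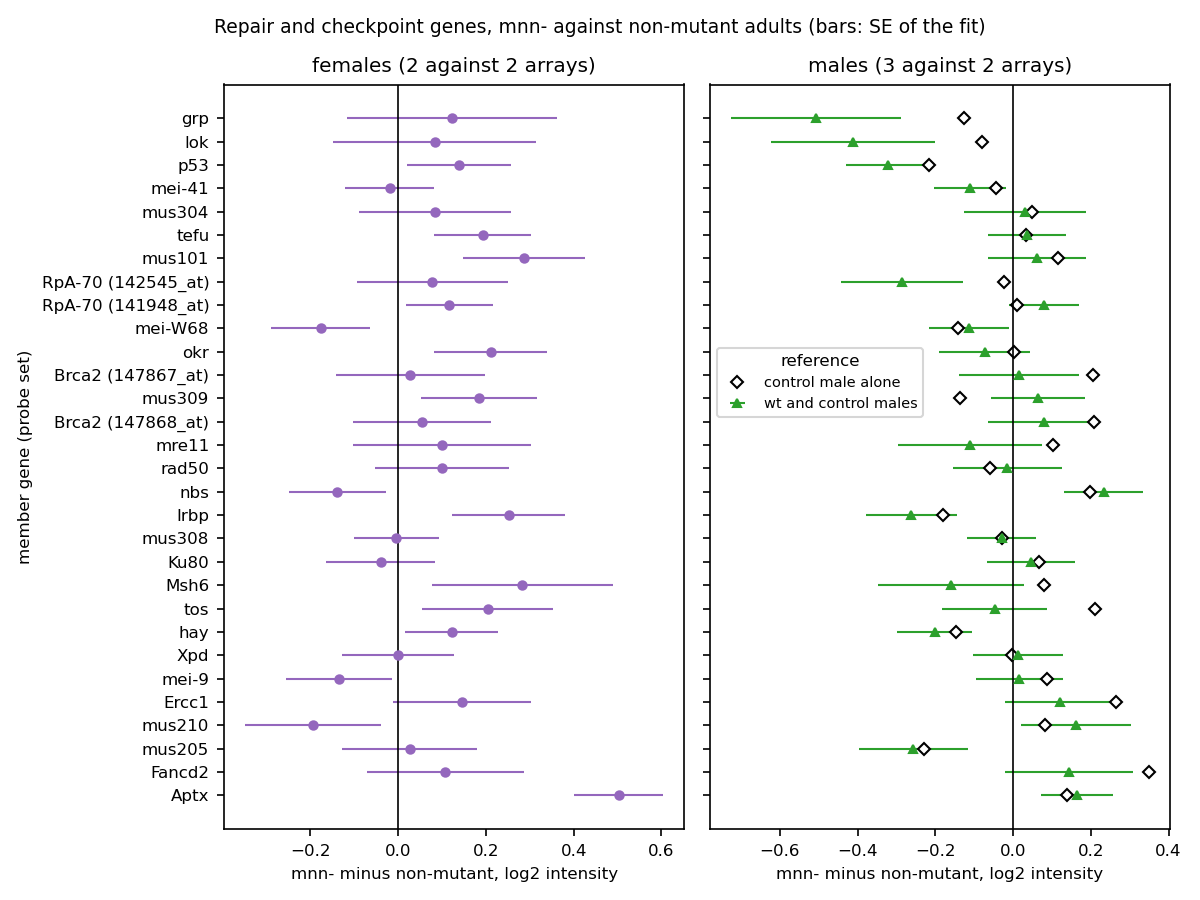
Difference of mnn- from non-mutant flies (log2 intensity, x axis) for each member probe set in females and in males, with bars of 1 SE. Open diamonds give the male difference against the control male alone, without the wt male. Aptx in females, at 0.50, lies farthest from 0 there, and grp moves from -0.51 to -0.13 when the wt male is left out.

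The effect of genotype was not shown to differ between the sexes. The interaction called 0 of 30 members (0% of all), and 5 of 30 had an unadjusted p under 0.05, where 4.56% of all probe sets did. These were Irbp (0.51 ± 0.17, female minus male effect), p53 (0.46 ± 0.16), nbs (-0.37 ± 0.15), Aptx (0.34 ± 0.14) and hay (0.32 ± 0.14), each at an adjusted p = 0.992 by limma. The count of 5 uses the wt male, and without it only 1 non-mutant male is left. The members' median interaction estimate was 0.12, with 22 above and 8 below 0. It was 0.07 without the wt male (19 above, 11 below) and 0.17 without the control male (22 above, 8 below). Heterozygous against non-mutant females gave 0 of 30 (0% of all), and mnn- against heterozygous females gave 0 of 30 (0% of all), where Irbp had the smallest p (0.35 ± 0.13).

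In mnn++ embryos the members lay close to control. Mnn1 itself read 0.56 and 0.62 on its spots in the longest window, but only 0.03 to 0.25 in the earlier ones. The mean over windows is therefore a weak test of Mnn1 excess, and an absence of calls does not show that such excess leaves these genes unchanged. Over 4 windows 0 of 64 spots were called, where 0.260% of all spots were. At an unadjusted p under 0.05 there were 9 of 64, against 11.4% of all. Exactly 32 spots lay above and 32 below 0, and the median absolute log2 ratio was 0.0341, against 0.0354 over all spots. Of the 28 genes 15 had all their spots on one side of 0, 7 above and 8 below. All 8 comparisons of a window and control were above 0 for 4 of 64 spots, where 1.18% of all spots were: 1 of mre11, 1 of grp and a pair of p53 spots. They were all below 0 for 0 of 64, where 1.02% of all were.

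The MRN nuclease gene mre11 had the smallest p. In the order 2-4, 4-6, 6-8 and 2-16 h, its spot 19111 read 0.36, 0.26, 0.07 and 0.00 against cntrl1 and 0.23, 0.21, 0.26 and 0.13 against cntrl2 (log2 ratio, mean of both dyes). Over the 16 arrays the lowest, median and highest values were -0.23, 0.14 and 0.64, and 14 were above 0. The mean over windows was 0.19 ± 0.04 (n = 4), with an adjusted p = 0.0909 by limma. The other spot of the gene, 19767, read 0.17, 0.18, 0.07 and 0.05 against cntrl1 and 0.33, -0.01, 0.11 and -0.03 against cntrl2, a mean of 0.11 ± 0.04 (adjusted p = 0.348). Both spots were highest at 2-4 h and lowest at 2-16 h, whereas Mnn1 had its highest ratio in that last window. At 2-4 h a marker list of early zygotic genes, which the embryo itself transcribes, had 14 of 18 spots below 0 and 4 above. Their median was -0.22, where all spots had -0.0035, and 0 passed. At an unadjusted p under 0.05 by limma there were 9 of 18, against 2226 of all 30377. Whether mnn++ and control embryos differed in stage was not tested. The partners of mre11 had gene means of 0.00 for rad50 and -0.01 for nbs, each with opposite signs against the controls. Against cntrl1 and cntrl2, rad50 read 0.06 and -0.05 and nbs -0.07 and 0.05.

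The Bloom helicase gene mus309 had the smallest p of the spots below 0. Spot 9868 read 0.04, 0.07, -0.35 and -0.15 against cntrl1 and -0.47, -0.13, -0.28 and -0.09 against cntrl2, a mean of -0.17 ± 0.05 (adjusted p = 0.176 by limma). Of its 16 arrays 4 were above 0, with the lowest, median and highest at -0.92, -0.13 and 0.23. Spot 10544 read 0.02, -0.15, 0.04 and 0.03 and -0.51, 0.16, -0.11 and -0.10, a mean of -0.08 ± 0.04. Against cntrl2 at 2-4 h both spots lay near -0.5, while against cntrl1 they lay near 0. The direct arrays of cntrl1 against cntrl2 cover another window, 2-16 h, and there the spots read -0.36 and -0.16. In that window spot 9868 read lower against cntrl1 (-0.15) than against cntrl2 (-0.09), the opposite order to the direct arrays. Spot 10544, at 0.03 and -0.10, had the same order as they did. The other recombination genes had gene means of -0.06 for okr, -0.04 for Brca2 and 0.03 for mei-W68, which differed by control. Against cntrl1 and cntrl2, okr read -0.02 and -0.11, Brca2 0.00 and -0.09, and mei-W68 0.10 and -0.03. With mus309, all 10 recombination spots lay below 0 against cntrl2, as did 15862 of all 30377 spots. Against cntrl1, 5 lay above and 5 below 0.

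**Figure D4:**
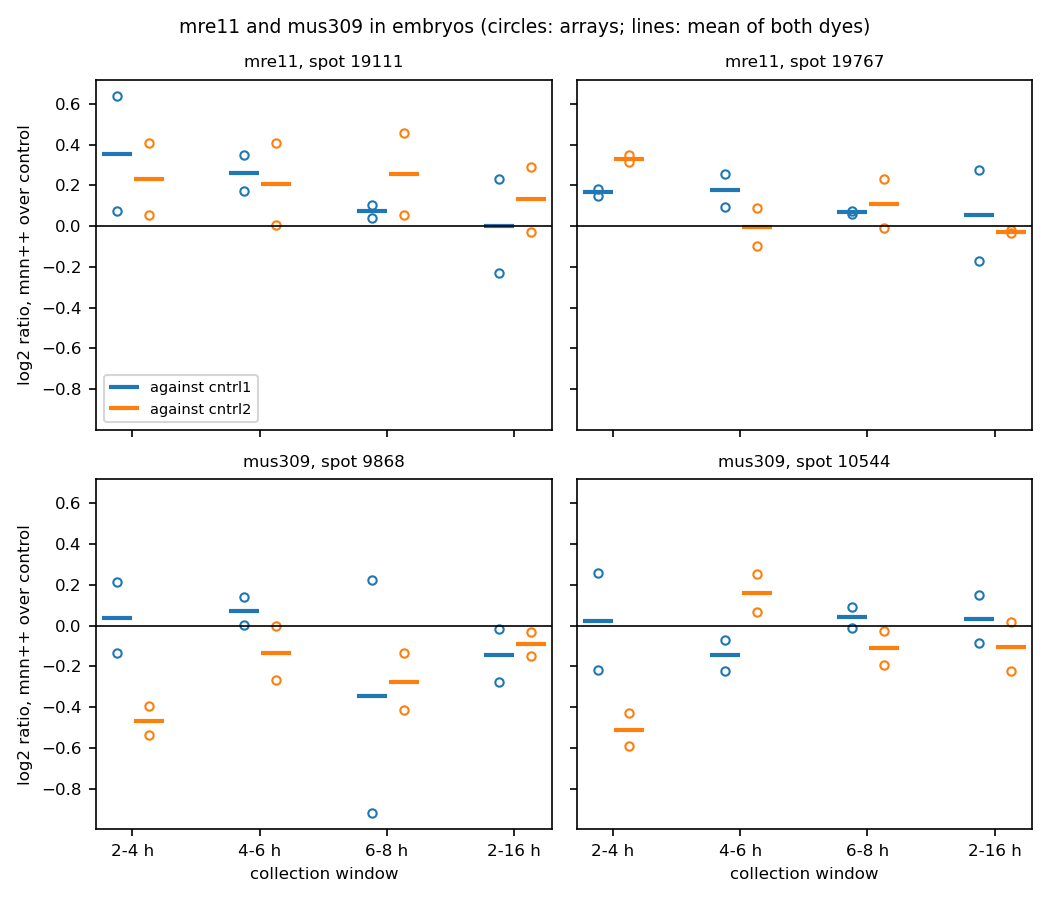
Log2 ratio of mnn++ over control (y axis) by collection window (x axis) for both spots of mre11 and of mus309. Circles are single arrays and lines are the mean of the dye orientations, against cntrl1 in blue and cntrl2 in orange. Most mre11 means lie above 0, and the mus309 means at 2-4 h lie near -0.5 against cntrl2 only.

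Among checkpoint genes, 11 of 18 spots lay above 0. The Chk1 gene grp had all 4 spots above 0 over the windows. Its spot 29542 read 0.20, 0.19, 0.03 and 0.06 against cntrl1 and 0.21, 0.05, 0.09 and 0.04 against cntrl2, a mean of 0.11 ± 0.04 (adjusted p = 0.315 by limma). As a mean of its spots grp fell from 0.13 at 2-4 h and 0.11 at 4-6 h to 0.05 at 6-8 h and -0.04 at 2-16 h, without a call in any window. The 4 spots of p53 also lay above 0, between 0.05 and 0.08. The ATR gene mei-41 (gene mean -0.06) and mus101 (-0.06) lay below 0, while lok (-0.01), mus304 (0.00) and tefu (0.02) had gene means near it.

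Excision, mismatch and end joining genes showed no call either. The XPC gene mus210 read 0.02, 0.01, 0.36 and 0.04 against cntrl1 and 0.00, 0.19, 0.13 and 0.07 against cntrl2 on spot 16558, a mean of 0.10 ± 0.04 (adjusted p = 0.382 by limma). That spot depended on dye, at 0.35 on the arrays with mnn++ in Cy3 and -0.15 on those with mnn++ in Cy5. The XPF gene mei-9 lay below 0 on both spots (gene mean -0.08), and Ercc1, Xpd and hay had gene means between -0.02 and 0.00. The Exo1 gene tos had a gene mean of -0.07, made of 0.00 against cntrl1 and -0.14 against cntrl2, and Msh6 a mean of 0.00. Irbp (0.02), Ku80 (0.03) and mus308 (-0.02) had small gene means, as did RpA-70 (0.00), Aptx (-0.01), Fancd2 (-0.04) and mus205 (0.04). Some of these means average unlike values. Against cntrl1 and cntrl2, mus308 read 0.08 and -0.11 and mus205 0.09 and -0.02. Irbp read 0.15 at 4-6 h and -0.08 at 6-8 h.

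**Figure D5:**
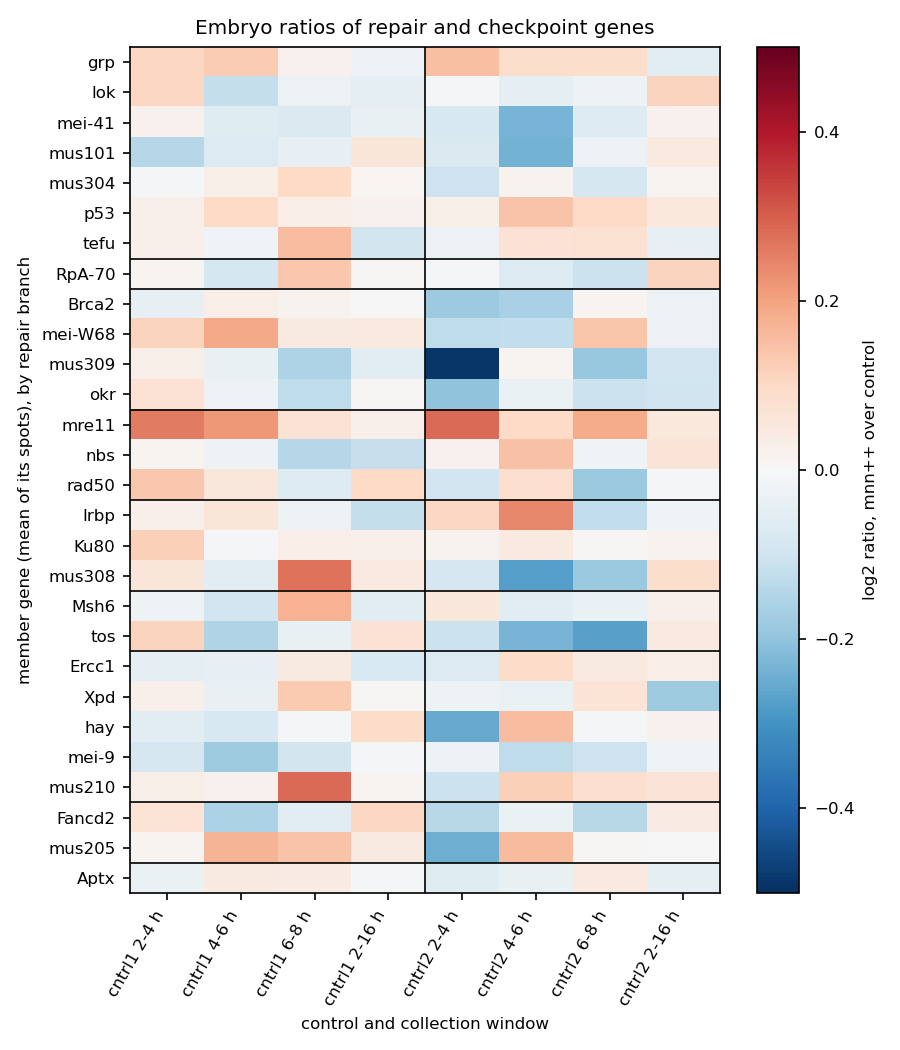
Log2 ratio of mnn++ over control (colour, mean of a gene's spots and of both dyes) for 28 genes by repair branch (rows) in the 4 windows against cntrl1 and cntrl2 (columns). The rows of mre11 and p53 are above 0 and that of mei-9 below 0 in all columns, mus309 is lowest at 2-4 h against cntrl2, and the other genes change sign between columns.

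Against each control alone the members gave no call. Against cntrl1 0 of 64 spots were called (0% of all), 40 lay above 0 and the smallest p were those of mei-W68 (0.12 ± 0.04) and mre11 (0.17 ± 0.06). Against cntrl2 0 of 64 were called (0.181% of all), 27 lay above 0 and the smallest p were those of mre11 (0.21 ± 0.05), mus309 (-0.24 ± 0.07) and tos (-0.19 ± 0.07). Between the controls, read through mnn++ as cntrl1 over cntrl2, 0 of 64 were called (0.0395% of all). The smallest p there belonged to rad50 (-0.20 ± 0.08 on spot 10222), mus308 (-0.23 ± 0.10) and Xpd (-0.19 ± 0.08). The direct arrays gave -0.01, 0.17 and 0.04 for these, so these differences were near 0 or turned on the direct arrays. The comparison between the controls is computed from the arrays of the other comparisons, so its values are not independent of theirs.

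By window, 0 of 64 spots were called at 2-4 h (0% of all), 4-6 h (0%), 6-8 h (0%) and 2-16 h (0%). At 2-4 h the smallest p belonged to both mre11 spots (0.29 ± 0.07 and 0.25 ± 0.07) and to grp (0.20 ± 0.06). At 4-6 h they belonged to Brca2 spot 9212 (-0.28 ± 0.07), mus205 spot 18596 (0.28 ± 0.07) and mre11 (0.23 ± 0.07). At 6-8 h mus210 (0.24 ± 0.08), mus309 (-0.31 ± 0.11) and tos (-0.25 ± 0.09) came first, and at 2-16 h grp spot 13757 (-0.17 ± 0.07), Ku80 (0.15 ± 0.08) and Aptx (-0.17 ± 0.09). The F test between 2-4, 4-6 and 6-8 h called 0 of 64 (0% of all). Its smallest p was that of mus205 spot 18596, at -0.15, 0.28, 0.06 and 0.06, in the window order used above (adjusted p = 0.964 by limma). The other spot of mus205 read -0.08, 0.04, 0.09 and -0.01, so it kept the sign at 2-4 and 4-6 h but not the size at 4-6 h.

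The wider repair list gave 0 calls among 102 embryo spots, with 52 above and 50 below 0. Its smallest p were those of mu2, a gene of telomere and chromosome break protection, at -0.20 ± 0.05 and -0.21 ± 0.05 on its spots. In adults that list gave 0 calls for mnn- against non-mutant flies, and 3 of 53 probe sets had an unadjusted p under 0.05. The embryo count changed with dye orientation: with only the arrays holding mnn++ in Cy3, 12 of 64 member spots and 20.5% of all spots were called. With only those holding it in Cy5, 1 of 64 and 6.76% were, and neither share of members was above that of all spots.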

How the data were processed

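RNA of whole embryos was compared on 18 two-colour arrays and RNA of whole adults on 11 single-colour arrays. Per the submitters' processing notes, limma 2.12.0 was used for the deposited embryo values, which were read as log2 ratios because no source states the log base or the sign. Swapped arrays had already been turned, and the sign was turned once more so that positive means higher in mnn++. The deposited adult values are log2 intensities, for which the submitters' processing notes name RMA and affy 2.12.0. Genome build and annotation are not given in the sources used here, and no coordinates are printed. The number of arrays limits the precision.

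Both tables were fitted whole with limma 3.58.1 (lmFit, eBayes) in R 4.3.3, and two-sided p-values were adjusted by Benjamini-Hochberg over all 30377 spots with a value on every array or all 13966 probe sets, with a threshold of 0.05. No filter on low values was used. In embryos the dyes and then the controls were averaged, which gives n = 4 windows. The 2-16 h window overlaps the others in age. Single windows were fitted on 8 dye-averaged comparisons, whose spread is that between the controls. Adult fits used all 11 arrays with terms for sex and genotype class, with wt and control pooled as non-mutant and heterozygotes as a class of their own.

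The members and the lists beside them were chosen with earlier results of these data known. Members called for sex are given with their arrays, and where under 5 were called, those of smallest p are named as not passed. Older gene names were matched through gene IDs (mus205 is now PolZ1, mus308 PolQ, mus309 Blm, mus210 Xpc and RpA-70 RPA1). Alternatives left out arrays, windows or stocks and changed normalization, averaging, dye orientation and moderation. The scripts were tested on simulated data. Promoter sequences were not analysed here.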

Additional observations from a re-analysis of the deposited data

Results flagged for a closer look

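In 5 of the 64 member spots 1 collection window stood apart from the other 3 by Dixon's criterion, and chance alone flags about 1 in 20. Values are log2 ratios of mnn++ over control, averaged over dyes and controls. Spot 13757 of grp read -0.167 at 2-16 h and 0.10, 0.11 and 0.08 in the earlier windows, with -0.17 against cntrl1 and -0.16 against cntrl2. Spot 30202 of grp read 0.153 at 4-6 h and 0.05 to 0.06 in the others. Both p53 spots named here were highest at 4-6 h, spot 25166 at 0.141 and spot 30955 at 0.150, and lay between 0.03 and 0.04 in the other windows. Spot 10544 of mus309 read -0.245 at 2-4 h, made of 0.02 against cntrl1 and -0.51 against cntrl2, and between -0.03 and 0.01 elsewhere. None of these windows passed the test.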

How the results depend on the processing

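The counts of called members moved by over 1.5 times under 5 alternatives. Over 4 embryo windows the count of 0 became 12 with only the Cy3 arrays (20.5% of all spots) and 1 with only the Cy5 arrays (6.76% of all). With probe sets above the median level, which left 14 members, the sex count was 13, and it was 14 within mnn- and 11 within non-mutant flies, because fewer members were tested. Of all probe sets in that setting 76.5%, 70.5% and 64.9% were called, in either direction. Leaving out single adult arrays kept the sex count at 26 and gave 23 to 27 within mnn- and 21 to 22 within non-mutant flies. All genotype, window and control counts stayed at 0 under the alternatives run for them.

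The sex difference of mei-W68 turned from -0.02 to 0.133 with quantile normalization, to 0.0049 with wt left out, and ran from -0.0683 to 0.0254 without single arrays (0.0097 to 0.0254 without mnn- female 7, mnn- male 9 or wt female 1), never passing. The dim RpA-70 probe set passed for sex with quantile normalization (0.26). Spot 16558 of mus210 was at -0.1485 with Cy5 arrays alone and passed at 0.35 with Cy3 arrays alone, where mre11 spot 19111 passed too (0.16). The cause of these changes was not tested. Aptx in mnn- flies had adjusted p from 0.232 to 0.650 over 19 alternatives and passed in 0. For mnn- against non-mutant flies no paired analysis was possible because each stock holds only 1 genotype. The titles do name the same stock or cross in both sexes for 4 pairs, and a replicate block on it was chosen after seeing the data. It called 26 of 30 members for sex, 24 within mnn- flies, 22 within non-mutant flies and 0 for the interaction. The main fit called 26, 26, 22 and 0. The block changed no single member's call for sex over all flies or for the interaction. The difference between the paired stocks correlated between females and males at r = 0.274 across probe sets in non-mutant and at -0.0772 in mnn- flies, so whether the titles mark shared cultures is not known. The files give no signal over background, so it is unknown how far dim spots limit the embryo ratios.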
